A study of Homo sapiens with 9 samples.

Results

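The mitochondrial ribosomal protein genes (MRP genes) were taken as every gene of the table whose symbol is MRPL or MRPS, then a number and at most 1 letter. The rule read names only and no measured value. It found 78 of 16612 genes, 49 MRPL and 29 MRPS. By the present naming of the ribosome, 51 encode proteins of the large subunit and 26 of the small subunit, since MRPS30 and MRPS18A sit in the large subunit. The remaining gene, MRPS36, is now KGD4 and encodes a subunit of the 2-oxoglutarate dehydrogenase complex. It was kept because the rule takes it. Of the 77 ribosomal genes, 46 are classed as encoding relatives of bacterial ribosomal proteins and 31 as encoding proteins specific to mitochondria. A further 8 rows that begin with MRPL or MRPS are antisense, divergent or pseudogene transcripts and were left out. All 78 genes passed the filter on low counts. Levels are given as counts scaled to 1e6 per library (CPM). Mean levels ran from 5.91 to 117 CPM, with a median of 24.6 CPM, and counts in a library from 60 to 5435.

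RNA was sequenced from HNT34, an established human acute myeloid leukemia (AML) cell line that expresses EVI1, a transcription factor encoded by MECOM. Cells carried a lentiviral vector with a non-targeting shRNA (NT), with EVI1 shRNA 16 (sh#16) or with EVI1 shRNA 87 (sh#87), and RNA was taken 3 days after selection. Every group held 3 libraries of 1 cell line, and the labels do not say whether they came from separate cultures, so p-values measure the spread between these libraries. All 9 libraries shared the vector type and the selection, and every comparison with NT used the same NT libraries.

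Mitochondrial ribosomes build the few proteins encoded by mitochondrial DNA, which are core subunits of the respiratory chain and of ATP synthase. Their ribosomal RNAs come from mitochondrial DNA, while all of their proteins are encoded in the nucleus, made in the cytosol and imported. AML cells are known for a strong reliance on respiration and on mitochondrial translation. The small subunit reads the mRNA, and the large subunit joins the amino acids, passes the chain through its exit tunnel and contacts the translation factors through its stalk.

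MECOM checked the labels. It stood at 571, 504 and 440 CPM in NT, at 145, 143 and 145 CPM in sh#16 and at 109, 107 and 106 CPM in sh#87 libraries (log2 fold change with both shRNAs -2.004 ± 0.14 SE, adjusted p = 9.18e-07). The depth was 17096170 to 43502389 counts per library. The NT libraries differed from each other far more than the knockdown libraries did: the biological coefficient of variation was 24.98% in NT, 3.77% in sh#16 and 6.98% in sh#87. For the MRP genes the median coefficient of variation was 12.4%, 3.92% and 6.70% in the same order. Mitochondrially encoded genes took 15.9%, 11.5% and 4.69% of the counts in the 3 NT libraries, 2.69% to 2.88% in sh#16 and 4.62% to 5.97% in sh#87. Of 8 myeloid markers the table held 7, MECOM among them, and their summed level was 2445 to 2626 CPM in NT, 774 to 783 CPM in sh#16 and 459 to 463 CPM in sh#87. Of 3 epithelial markers the table held none. COL1A1, the 1 fibroblast marker of 3 in the table, rose from 0.0433 to 0.172 CPM in NT to 25.9 to 26.9 CPM in sh#16 and 28.1 to 30.3 CPM in sh#87. The part of these differences in the results below was not tested. In such bulk samples, fewer cells of a kind and less RNA per cell cannot be told apart.

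To ask how the genes of the mitochondrial ribosome responded to EVI1 knockdown, the 6 knockdown libraries were first compared with NT. More MRP genes fell than rose, and the changes were moderate in size. Calls were made where the adjusted p was 0.01 or lower. Of 78 genes 46 were called, 36 lower and 10 higher, and 32 did not pass. Among all 16312 genes tested 59.8% were called, 29.7% lower and 30.1% higher. The median log2 fold change was -0.47 for the MRP genes and 0.05 for all genes tested. It was below -1 for 14 MRP genes and above 1 for 5, against 2969 and 3919 of all 16312 genes tested. In 43 MRP genes every knockdown library was below every NT library and in 11 every one was above, against 32.1% and 33.9% of all genes. At the study's threshold, which also asks for a log2 change of 2 or more in size, 0 MRP genes passed, against 15.4% of all genes.

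**Figure D1:**
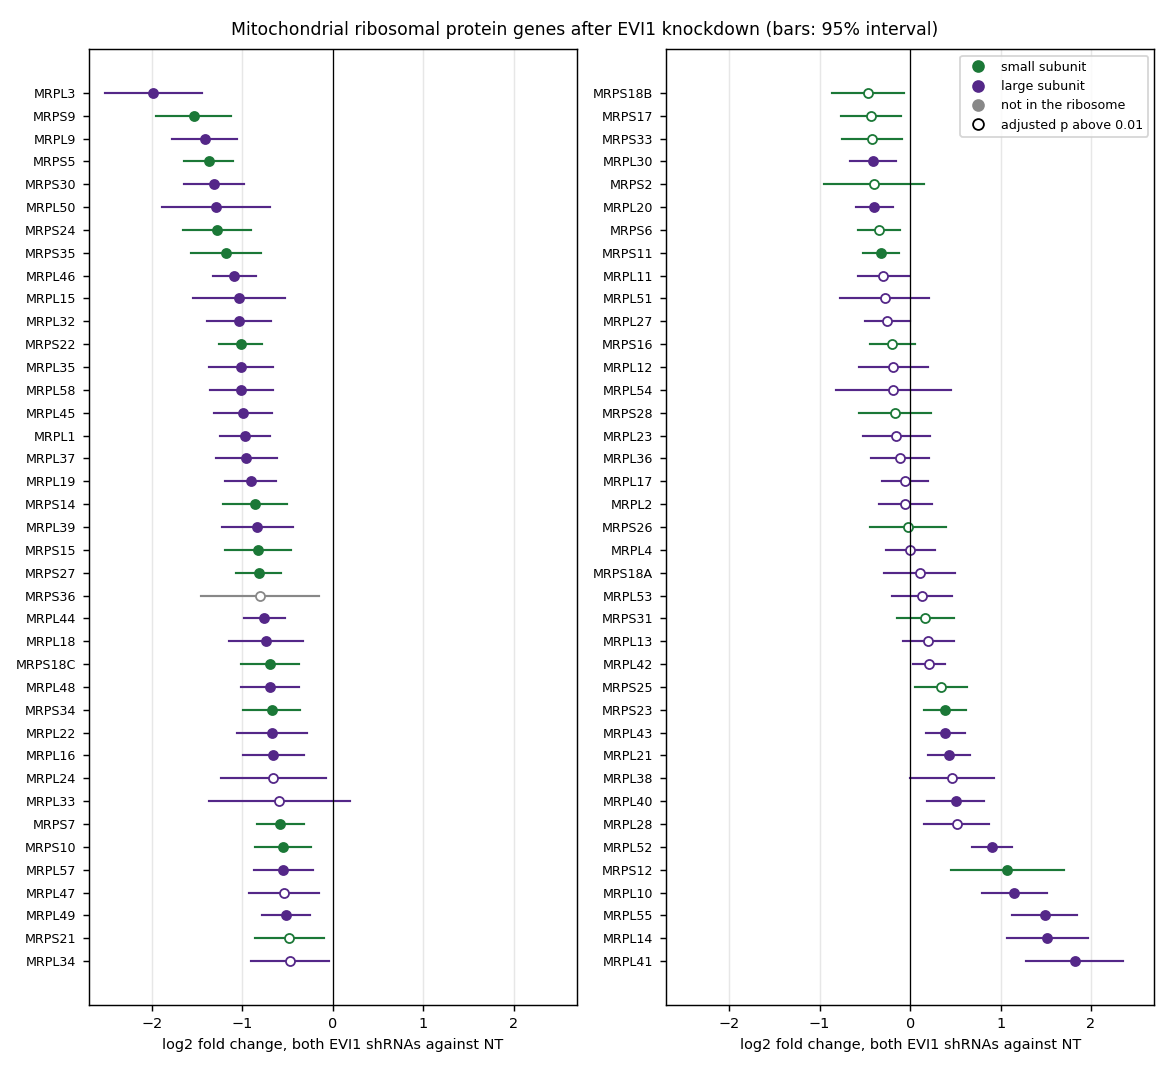
Log2 fold change of each of the 78 MRP genes with both EVI1 shRNAs against NT, sorted from lowest to highest over 2 panels. Points are estimates, bars 95% intervals, colors the ribosomal subunit, and open points did not reach an adjusted p of 0.01. Genes run from MRPL3 at -1.99 to MRPL41 at 1.82, and 59 of 78 estimates are below 0.

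The lowest fold change was that of MRPL3 (chr3:131462212-131502971, GRCh38.p14, minus strand), a relative of the bacterial large subunit protein of the same number. It measured 151, 127 and 94.997 CPM in NT, 39.9, 38.99 and 41.0 CPM in sh#16 and 24.1, 20.6 and 23.7 CPM in sh#87. The groups did not overlap, and sh#87 was the lowest. The fitted level was 3.96-fold lower with both shRNAs (log2 fold change -1.99 ± 0.24 SE, adjusted p = 3.92e-05).

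MRPS9 (chr2:105038069-105099960) and MRPS5 (chr2:95085369-95122003) encode small subunit proteins with bacterial relatives. MRPS9 was at 77.9, 67.5 and 50.3 CPM in NT, 26.5, 26.4 and 27.2 CPM in sh#16 and 18.8, 17.5 and 18.0 CPM in sh#87 (log2 fold change -1.54 ± 0.19 SE, adjusted p = 3.91e-05). MRPS5 was at 51.5, 50.02 and 37.3 CPM in NT, 17.9, 20.0 and 19.6 CPM in sh#16 and 16.6, 15.8 and 17.0 CPM in sh#87 (log2 fold change -1.38 ± 0.12 SE, adjusted p = 4.91e-06). Both genes were lower in every knockdown library than in any NT library.

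MRPL9 (chr1:151759647-151763496), another relative of a bacterial large subunit protein, measured 34.5, 31.9 and 35.1 CPM in NT, 13.8, 15.8 and 13.9 CPM in sh#16 and 13.0, 8.76 and 10.5 CPM in sh#87 (log2 fold change -1.42 ± 0.16 SE, adjusted p = 2.58e-05). Its NT libraries were close to each other. MRPS30 (chr5:44808947-44815514), specific to mitochondria, measured 184, 156 and 128 CPM in NT, 70.2, 69.1 and 75.8 CPM in sh#16 and 53.9, 54.4 and 52.4 CPM in sh#87 (log2 fold change -1.31 ± 0.15 SE, adjusted p = 2.44e-05). Its length-scaled CPM, counts divided by transcript length and scaled to the total of CPM, was the highest of the 78 genes in NT and as a mean over the 9 libraries, at 146 ± 8.60 (SD, n = 3) in NT, 85.1 ± 4.71 in sh#16 and 70.2 ± 4.06 in sh#87.

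The 10 genes that rose had mean NT levels from 4.23 CPM (MRPL41) to 42.7 CPM (MRPS23). MRPL41 (chr9:137551879-137552555), specific to mitochondria, measured 2.58, 3.73 and 6.37 CPM in NT, 15.7, 15.7 and 15.2 CPM in sh#16 and 15.3, 15.3 and 12.9 CPM in sh#87. It was 3.53-fold higher with both shRNAs (log2 fold change 1.82 ± 0.24 SE, adjusted p = 7.56e-05). MRPL14 (chr6:44113451-44127452), whose bacterial relative lies on the face that meets the small subunit, measured 4.43, 6.85 and 9.24 CPM in NT, 19.7, 21.0 and 19.9 CPM in sh#16 and 20.0, 20.5 and 16.6 CPM in sh#87 (log2 fold change 1.51 ± 0.20 SE, adjusted p = 7.52e-05). Every knockdown library was above every NT library for both genes.

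MRPL55 (chr1:228106685-228109299), a protein of the central protuberance, measured 5.07, 6.20 and 7.04 CPM in NT, 15.2, 15.5 and 15.6 CPM in sh#16 and 21.6, 16.6 and 18.2 CPM in sh#87 (log2 fold change 1.49 ± 0.16 SE, adjusted p = 1.76e-05). MRPL10 (chr17:47823272-47831541), the base of the stalk, measured 24.8, 30.2 and 43.1 CPM in NT, 68.7, 69.0 and 64.6 CPM in sh#16 and 77.2, 79.5 and 77.5 CPM in sh#87 (log2 fold change 1.15 ± 0.16 SE, adjusted p = 0.00011). MRPS12 (chr19:38930944-38933168), the relative of a bacterial protein of the decoding site, measured 5.03, 7.67 and 13.7 CPM in NT, 19.8, 22.6 and 22.0 CPM in sh#16 and 16.3, 16.4 and 14.6 CPM in sh#87 (log2 fold change 1.075 ± 0.28 SE, adjusted p = 0.00575). The NT libraries of MRPS12 lay far apart, and its adjusted p rose above 0.01 without NT replicate 1 (0.018), NT replicate 2 (0.0303) or any 1 of the sh#16 libraries (0.0107 to 0.0113).

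**Figure D2:**
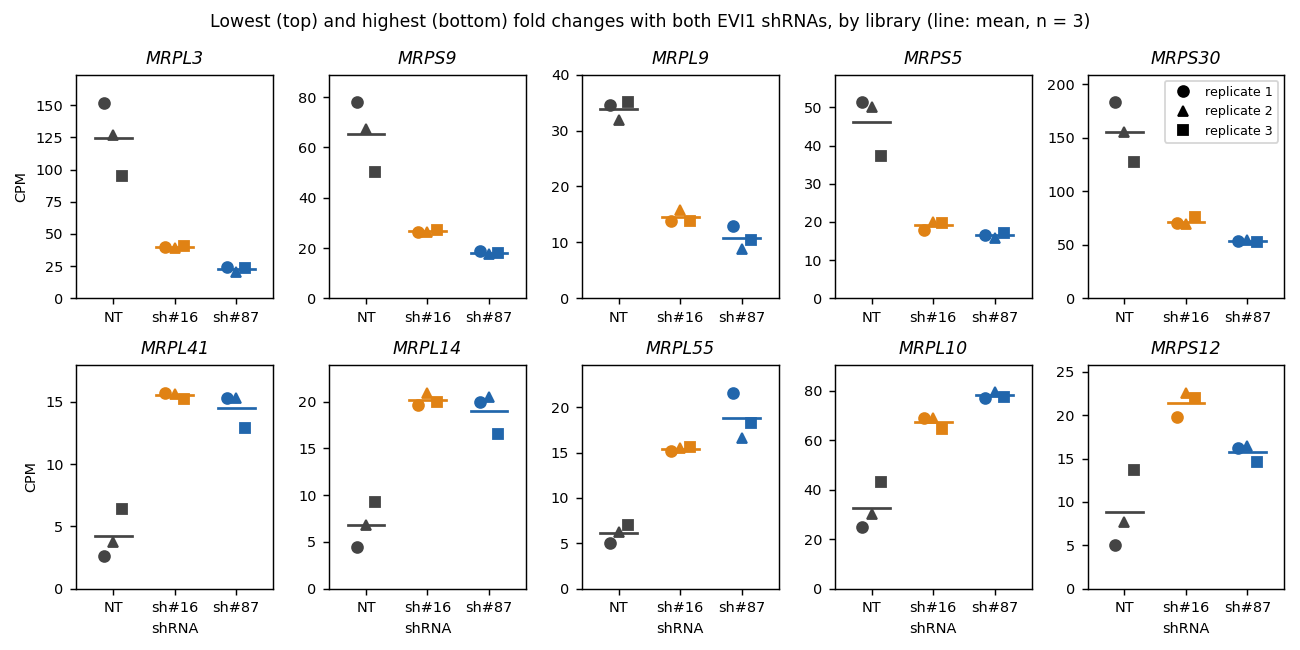
CPM of the 5 MRP genes with the lowest and the 5 with the highest log2 fold change with both shRNAs. Points are libraries (circle, triangle and square for replicates 1, 2 and 3), lines group means (n = 3), and each panel has its own linear axis from 0. No knockdown library overlaps NT in any panel, and the NT points of MRPL3 run from 94.997 to 151 CPM.

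Many of these values moved with the GC content of the transcript. Within NT, the log2 difference of replicate 3 and replicate 1 rose with GC content across the 78 genes (Pearson's r = 0.72, Spearman's rho = 0.72) and across 13854 genes with a known length (r = 0.595). The log2 fold change with both shRNAs also rose with GC content, with r = 0.48 across the 78 genes and 0.249 across all. These are descriptions across genes, which share the same libraries and are not independent replicates. The median GC content was 54.7% in the 10 genes that rose, 45.2% in the 36 that fell and 50.6% in the 32 that did not pass. After a correction of each library for length and GC content, r was 0.0412 across the 78 genes. Then 42 fell and 11 rose, against 34.8% and 29.6% of the 13854 genes tested, and 32 of the 36 decreases and 7 of the 10 increases remained. The decrease of MRPL3 was then -1.75 and that of MRPL9 -1.51. The increase of MRPL41 was 0.93, that of MRPL55 0.74 and that of MRPS12 0.65, the last with an adjusted p of 0.0109. The part of GC content in these changes was not tested beyond this correction.

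The genes with changes near 0 showed the same limit. MRPL4, whose bacterial relative lines the exit tunnel, measured 42.0, 49.9 and 52.8 CPM in NT, 51.4, 54.0 and 52.6 CPM in sh#16 and 48.7, 43.3 and 39.7 CPM in sh#87. Its log2 fold change was 0.0014 (95% interval -0.27 to 0.27, adjusted p = 0.993) and -0.75 after the GC correction (adjusted p = 0.000239). MRPS26 was at -0.0249 (95% interval -0.44 to 0.39) and MRPL2 at -0.0525 (95% interval -0.35 to 0.24). After the GC correction MRPS26 was at -0.63 (adjusted p = 0.00214) and MRPL2 at -0.28 (adjusted p = 0.0163). The groups overlapped for each of the 3 genes.

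By subunit, 13 of 26 small subunit genes fell and 2 rose, and 23 of 51 large subunit genes fell and 8 rose. Among all genes tested 29.7% fell and 30.1% rose. The subunit medians of the log2 fold change were -0.47 and -0.41. Of the genes with bacterial relatives 21 of 46 fell and 5 rose, and of those specific to mitochondria 15 of 31 fell and 5 rose, with medians of -0.45 and -0.46. Within the large subunit, 3 of 8 central protuberance genes rose (MRPL55, MRPL52 and MRPL40) and 3 fell (MRPL46, MRPL18 and MRPL48). Of the 3 stalk genes, MRPL10 rose, and MRPL11 at -0.30 and MRPL12 at -0.18 did not pass with both shRNAs. Against NT with sh#87 alone, MRPL11 (-0.47) and MRPL12 (-0.46) were called lower. Of 6 genes classed at the tunnel exit, which leave out MRPL4, MRPL45 at -0.99 and MRPL22 at -0.67 fell. MRPL45 can share reads with its copy MRPL45P2. The other 4 estimates at the tunnel exit ran down to -0.66 for MRPL24 without passing with both shRNAs. Of these, MRPL24 (-1.18) and MRPL47 (-0.83) were called lower with sh#87. MRPL22 lost its call under several alternatives, with an adjusted p of 0.024 without NT replicate 1 and 0.0345 after the GC correction. Neither the subunits nor the regions were tested against each other.

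The paralogs MRPS18A, MRPS18B and MRPS18C descend from a shared bacterial-type gene, and the proteins occupy different places in the ribosome. In the classes used here, MRPS18C counts among the bacterial relatives, and MRPS18A and MRPS18B among the genes specific to mitochondria. MRPS18C fell, from 27.3, 22.1 and 16.6 CPM in NT to 14.4, 14.2 and 12.5 CPM in sh#16 and 13.7, 11.8 and 14.8 CPM in sh#87 (log2 fold change -0.69 ± 0.15 SE, adjusted p = 0.00156), with an adjusted p of 0.0149 after the GC correction. MRPS18B measured 27.6, 37.8 and 43.96 CPM in NT, 31.6, 30.6 and 30.02 CPM in sh#16 and 21.4, 23.5 and 21.4 CPM in sh#87, so that sh#16 lay inside the NT range. It fell with sh#87 (log2 fold change -0.72 ± 0.15 SE, adjusted p = 0.00167) and did not pass with sh#16 (-0.25, adjusted p = 0.159). MRPS18A measured 11.7, 18.1 and 20.8 CPM in NT, 21.0, 20.4 and 18.6 CPM in sh#16 and 16.8, 16.7 and 15.2 CPM in sh#87 (log2 fold change with both shRNAs 0.10 ± 0.18 SE, adjusted p = 0.611), and its estimate was -0.22 after the GC correction. The decrease of MRPS18C was not tested against the other paralogs.

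The level of the whole list depended on the scale. Summed over the 78 genes on the TMM scale used for the tests, it was 3151, 3061 and 2936 CPM in NT, 2408, 2440 and 2436 CPM in sh#16 and 2060, 1983 and 1988 CPM in sh#87. The group means were 3049 ± 108 (SD, n = 3), 2428 ± 17.6 and 2010 ± 43.3, so sh#16 stood at 79.6% and sh#87 at 65.9% of NT. On this scale the small and the large subunit stood at 77.3% and 81.0% of NT in sh#16 and at 65.9% and 66.1% in sh#87. As a plain share of all counts the list took 0.253% to 0.281% in NT, 0.259% to 0.26% in sh#16 and 0.214% to 0.218% in sh#87, so that sh#16 lay inside the NT range and sh#87 below it. As length-scaled CPM the sum was 2829 to 3471 in NT, 3176 to 3256 in sh#16 and 2801 to 2907 in sh#87, so that each shRNA overlapped NT and sh#87 lay below sh#16. The TMM factors were 0.804 to 0.959 in NT and 1.06 to 1.09 in the knockdown libraries. They entered the summed CPM but neither the plain share nor the length-scaled CPM.

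**Figure D3:**
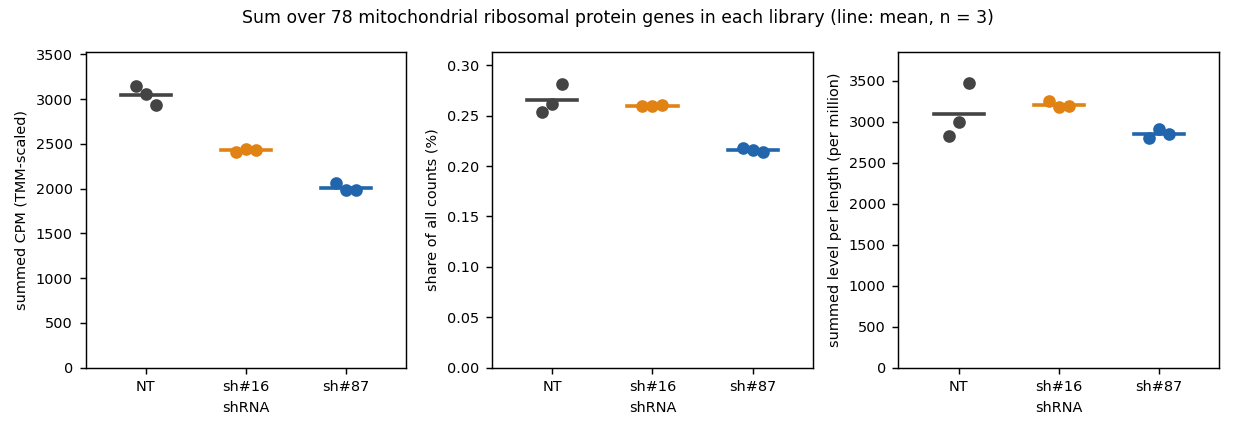
Sum over the 78 MRP genes in each library on 3 scales: TMM-scaled CPM (left), percent of all counts (middle) and length-scaled CPM (right). Points are libraries and lines group means (n = 3), with axes from 0. The groups separate on the left, while sh#16 lies inside the NT range in the middle and on the right.

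Length-scaled CPM allowed the genes to be ordered among themselves. Averaged over the 9 libraries, the highest were MRPS30 (100.3), MRPL37 (93.6) and MRPS21 (89.1), and the lowest MRPL22 (12.6), MRPS36 (11.7) and MRPS33 (6.02). These levels rest on 1 reference transcript per gene. MRPL37 in NT, at 119 ± 2.99 (SD, n = 3), was below MRPS30 at 146 ± 8.60 by more than their spread, while MRPS36 (14.1 ± 0.85) and MRPL22 (14.2 ± 0.68) did not differ beyond it. Other genes led in the knockdown groups. In sh#16 the highest means were those of MRPL51 (107 ± 2.20) and MRPS21 (99.97 ± 5.41), above MRPL37 (89.2 ± 1.73) and MRPS30 (85.1 ± 4.71). In sh#87 the highest were those of MRPL10 (96.4 ± 6.53) and MRPS6 (88.02 ± 5.29), followed by MRPL52 (80.7 ± 2.21) and MRPL4 (77.6 ± 5.10), and MRPS30, MRPL37 and MRPS21 lay between 70.2 and 74.1. MRPL51 and MRPS6 were named after their values were seen.

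Each shRNA was then compared with NT. With sh#16, 34 MRP genes fell and 12 rose, against 30.2% and 29.8% of all genes (60% in either direction), and the median log2 fold change was -0.27 against 0.04. With upper-quartile scaling, which moved the median of all genes up by about as much as that of the list, to 0.14 and -0.16, the split was 25 lower and 15 higher. The shares of all genes called under that scaling are not given, so this split describes only the list. Every sh#16 library was below every NT library in 43 MRP genes and above in 14, against 35.8% and 38.6% of all genes. With sh#87, 50 fell and 9 rose, against 33.6% and 34.3% of all genes (67.9% in either direction), and the median was -0.69 against 0.04. Every sh#87 library was below every NT library in 53 MRP genes and above in 12, against 37.6% and 40.4% of all genes. MRPL3 was the 1 MRP gene past the study's threshold, with sh#87 (log2 fold change -2.45 ± 0.16 SE, adjusted p = 8.97e-07), against 18.9% of all genes. With sh#16, where 12.8% of all genes passed it, the MRP genes had 0. Both comparisons called 33 genes lower and 8 higher, and no gene was called in opposite directions. A further 17 genes were called lower with sh#87 alone, 1 with sh#16 alone (MRPS6), 4 were called higher with sh#16 alone and 1 with sh#87 alone (MRPS25), and 14 in neither. These 2 comparisons share the NT libraries, and the joint patterns of calls were not counted over all genes.

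The direct comparison of sh#87 with sh#16 does not rest on the NT levels. It called 20 MRP genes lower and 1 higher with sh#87, against 9.42% and 8.29% of all genes (17.7% in either direction). None passed the study's threshold between the shRNAs, where 0.454% of all genes did. The estimate with sh#87 was below that with sh#16 in 70 of 78 genes, and the median log2 difference was -0.33 against -0.02 for all genes tested. In 61 genes every sh#87 library was below every sh#16 library, and in 4 every one was above, against 34.3% and 31.1% of all genes. In 37 genes the 3 groups were ordered NT, sh#16 and sh#87 from high to low with no overlap, and in 3 from low to high. The share of all genes in either order was not computed, so these 2 counts only describe the list. The number of calls depended on single libraries, NT included, in a fit whose spread comes from all 3 groups. It was 7 or 8 without any 1 of the sh#16 libraries or without sh#87 replicate 2 or 3, 12 without sh#87 replicate 1, and 36, 14 and 39 when NT replicates 1, 2 and 3 were left out in turn. Its direction did not: the median log2 difference stayed between -0.38 and -0.32 in these 9 fits. The shares of all genes called in these fits are not given, so their counts describe only the list.

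MRPS36 had the largest difference among these calls, with 8.83, 8.30 and 10.2 CPM in sh#16 and 5.78, 3.98 and 3.92 CPM in sh#87, beside 13.1, 11.8 and 11.0 CPM in NT (log2 difference -0.99 ± 0.17 SE, adjusted p = 0.00255). MRPL50, specific to mitochondria, measured 47.1, 41.3 and 35.3 CPM in NT, 22.6, 21.7 and 22.4 CPM in sh#16 and 12.4, 11.0 and 10.5 CPM in sh#87 (log2 difference -0.97 ± 0.12 SE, adjusted p = 0.000535). MRPL24, whose bacterial relative sits at the tunnel exit, measured 22.4, 22.7 and 24.4 CPM in NT, 18.7, 20.4 and 18.1 CPM in sh#16 and 12.5, 9.34 and 8.74 CPM in sh#87 (log2 difference -0.90 ± 0.13 SE, adjusted p = 0.00138). Its sh#16 level did not pass against NT, and its sh#87 level did (log2 fold change -1.18 ± 0.13 SE, adjusted p = 3.18e-05).

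MRPL15, a large subunit protein with a bacterial relative, measured 60.7, 58.6 and 67.7 CPM in NT, 37.8, 37.8 and 40.4 CPM in sh#16 and 24.4, 20.2 and 21.2 CPM in sh#87 (log2 difference -0.82 ± 0.09 SE, adjusted p = 0.000428). MRPL3 differed by -0.81 ± 0.15 SE (adjusted p = 0.00441), above 0.01 without any 1 of the 6 knockdown libraries (0.0146 to 0.0232). MRPS36 likewise lost its call without sh#16 replicate 1 or 3 or sh#87 replicate 2 or 3 (0.011 to 0.0147). MRPS25, a small subunit protein specific to mitochondria, was the gene that went the other way: 71.5, 69.9 and 72.0 CPM in NT, 75.7, 76.0 and 81.1 CPM in sh#16 and 99.0, 105 and 104 CPM in sh#87 (log2 difference 0.40 ± 0.06 SE, adjusted p = 0.00115). MRPS21 (-0.57) and MRPS33 (-0.45), among the highest and the lowest genes per length, were also lower with sh#87.

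**Figure D4:**
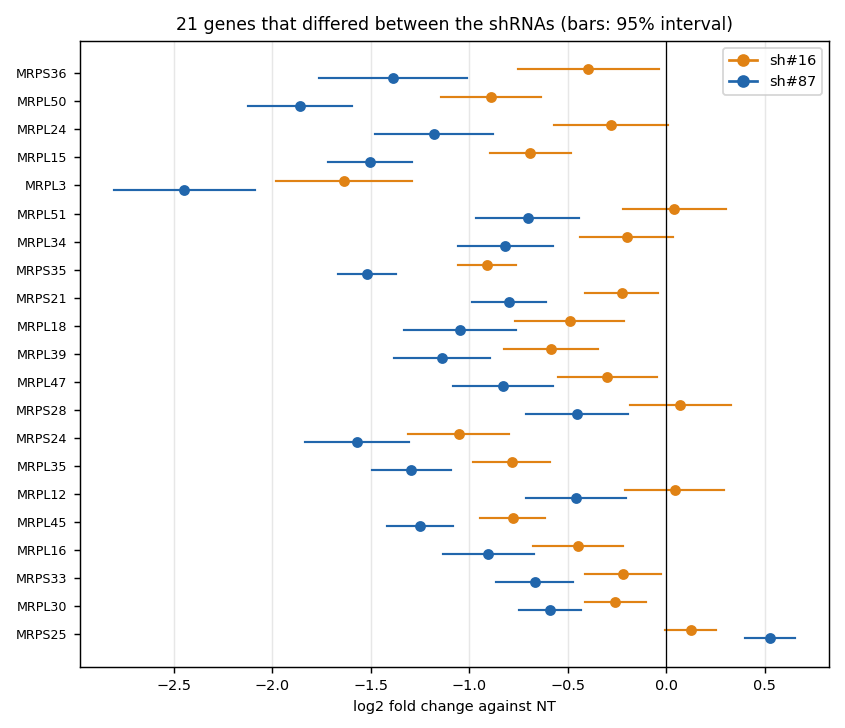
Log2 fold change against NT with sh#16 (orange) and sh#87 (blue) for the 21 MRP genes called between the shRNAs, sorted by the difference. Points are estimates and bars 95% intervals. In 20 genes the sh#87 point lies to the left of the sh#16 point, and in MRPS25, the bottom row, to the right.

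Promoters were read to show what the genes share in sequence. RefSeq windows of 250 bases before to 50 bases after the start (GRCh38.p14) were at hand for 70 of the 78 genes and for 10561 of all genes tested. They were searched on both strands for fixed words, each named for a factor known to bind such a word. The YY1 word, whose 11 bases are in capitals in the windows below and contain ATG, was in 10 MRP promoters (14.3%) and in 2.06% of all promoters. It lay after the transcription start in 9 of the 10. These windows of 30 bases are shown because the word recurs 6 to 23 bases from the start in genes with different responses:
MRPS30 (chr5:44808951-44808980, plus strand, fell): tcgcgggcaAAGATGGCGGCggccaggtgt
MRPL50 (chr9:101398575-101398604, minus strand, fell): atctcatcgAAGATGGCGGCgcgatctgtg
MRPS24 (chr7:43869478-43869507, minus strand, fell): gcttggcccAAGATGGCGGCctccgtgtgc
MRPL46 (chr15:88467360-88467389, minus strand, fell): ggagaacgaAAGATGGCGGCgcccgtaagg
MRPS18A (chr6:43687762-43687791, minus strand, not called): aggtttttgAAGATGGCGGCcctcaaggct
MRPL38 (chr17:75904858-75904887, minus strand, not called): gccggagggAAGATGGCGGCgccctggtgg

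Of the 34 genes with a promoter that fell, 6 held the YY1 word, as did 4 of the 28 not called and 0 of the 8 that rose. The ETS word CCGGAAG, of the kind bound by the GABP complex, was in 29 MRP promoters (41.4%) and in 19.8% of all promoters. It was in 10 of the 34 genes that fell, 14 of the 28 not called and 5 of the 8 that rose. It is shown in capitals for the gene with the lowest fold change and for 3 that rose:
MRPL3 (chr3:131502985-131503014, minus strand, fell): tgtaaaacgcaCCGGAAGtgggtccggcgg
MRPS12 (chr19:38930928-38930957, plus strand, rose): acggatagcgcCCGGAAGaggctagaagct
MRPL40 (chr22:19432523-19432552, plus strand, rose): ggggcgcacgcCCGGAAGcggcgagggtag
MRPL43 (chr10:100987497-100987526, minus strand, rose): tcgtcccggaaCCGGAAGcctcgaggttta

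The E-box word CACGTG, of the kind bound by MYC, was in 7 MRP promoters (10%) and in 10.1% of all. The NRF1 word was in 1 MRP promoter (1.43%) and in 2.46% of all, and it stands in capitals in that promoter, of the uncalled gene MRPL17 (chr11:6683402-6683431, minus strand): aggctctgatGCGCATGCGCaaacacgttc. The SP1 word GGGCGG was in 61.4% against 69.1%, TATAAA in 4.29% against 5.86% and the GATA word AGATAA in 2.86% against 5.05%. A match is a description of the letters and shows no binding, and the promoters of MRPS10, MRPS18A and MRPL38 held both the ETS and the YY1 word.

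Many MRP genes start close to another gene on the opposite strand. A protein-coding gene started within 1000 bases in head-to-head orientation for 18 of 70 genes (25.7%) and for 14.6% of 9857 protein-coding genes tested. In 1 such pair both partners encode mitochondrial ribosomal proteins: MRPL46 and MRPS11 start 320 bases apart, and both fell (-1.09 and -0.33). MRPL50 and ZNF189 (233 bases) both fell, at -1.29 and -1.34, and MRPL40 and HIRA (812 bases) both rose, at 0.50 and 0.51. Other pairs went apart: MRPL37 fell (-0.96) while CYB5RL, 137 bases away, rose (0.46), and MRPS18C fell while HELQ (175 bases) rose (0.48). MRPS12 rose beside SARS2, the mitochondrial seryl-tRNA synthetase, which starts 181 bases away and did not pass (-0.13 ± 0.17 SE, adjusted p = 0.52). Over the 18 genes, the pair moved the same way in 5 (counting MRPL46 and MRPS11 from both sides), apart in 2, and in 11 at least 1 gene did not pass.

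The rest of the mitochondrial translation system was described with lists of its other parts. The 5 ribosomal proteins with other names held 1 gene that fell, GADD45GIP1 (34.4, 31.6 and 20.1 CPM in NT, 14.1, 18.5 and 19.1 CPM in sh#16, 15.5, 11.3 and 11.3 CPM in sh#87, log2 fold change -0.94 ± 0.21 SE, adjusted p = 0.00244). DAP3 (0.22, adjusted p = 0.0127), whose knockdown libraries were all above NT, PTCD3 (0.20, adjusted p = 0.0369), AURKAIP1 (0.55, adjusted p = 0.0281) and CHCHD1 (-0.0079, adjusted p = 0.98) did not pass. With both shRNAs 29.7% of all genes fell. With sh#16, 2 of the 5 genes were called higher and 0 lower, against 29.8% and 30.2% of all genes. With sh#87, 2 were called higher and 1 lower, against 34.3% and 33.6%. DAP3, a GTP-binding small subunit protein, was among those called higher in each single comparison, at 0.23 with sh#16 and 0.21 with sh#87.

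Of 29 assembly factors 13 fell and 5 rose, against 29.7% and 30.1% of all genes, with a median of -0.29 against 0.05. They ran from MRM1, a methyltransferase of the large ribosomal RNA, at 5.68, 7.84 and 10.7 CPM in NT, 2.61, 3.20 and 3.51 CPM in sh#16 and 2.95, 3.35 and 2.39 CPM in sh#87 (-1.43 ± 0.21 SE, adjusted p = 0.000127), to MPV17L2, an inner membrane protein of ribosome assembly, at 5.42, 6.72 and 5.94 CPM in NT, 18.7, 16.9 and 16.3 CPM in sh#16 and 20.1, 20.2 and 19.8 CPM in sh#87 (1.63 ± 0.13 SE, adjusted p = 1.97e-06). Of 17 translation factors 5 fell and 2 rose, against the same 29.7% and 30.1% of all genes, with a median of -0.24. The lowest was the initiation factor MTIF2, at 87.8, 76.1 and 51.2 CPM in NT, 26.3, 28.2 and 25.3 CPM in sh#16 and 23.7, 18.9 and 21.1 CPM in sh#87 (-1.58 ± 0.17 SE, adjusted p = 1.65e-05). The highest estimate was that of the peptide deformylase PDF, with 0.129, 4.29 and 9.71 CPM in NT and 10.2 to 12.6 CPM in the knockdown libraries, which did not pass (1.27 ± 0.67 SE, adjusted p = 0.114).

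Of 12 regulators of mitochondrial transcription and biogenesis 6 fell and 1 rose, against 29.7% and 30.1% of all genes, with a median of -0.56. GABPB1, a subunit of the ETS-family complex GABP, fell from 97.4, 80.0 and 73.2 CPM in NT to 21.7, 19.9 and 20.7 CPM in sh#16 and 13.2, 11.5 and 12.1 CPM in sh#87 (log2 fold change -2.34 ± 0.22 SE, adjusted p = 6.33e-06), and it also differed between the shRNAs (-0.76 ± 0.11 SE, adjusted p = 0.0016). POLRMT, the mitochondrial RNA polymerase, rose from 22.1, 34.6 and 51.8 CPM in NT to 55.3, 57.9 and 59.0 CPM in sh#16 and 71.7, 73.3 and 68.4 CPM in sh#87 (0.83 ± 0.22 SE, adjusted p = 0.00706). MYC measured 299, 366 and 444 CPM in NT, 256, 267 and 256 CPM in sh#16 and 111, 93.1 and 98.4 CPM in sh#87. With both shRNAs it did not pass (-1.03 ± 0.37 SE, adjusted p = 0.0264), while it fell with sh#16 (-0.51 ± 0.13 SE, adjusted p = 0.00665) and with sh#87 (-1.87 ± 0.14 SE, adjusted p = 1.86e-06), and more with sh#87 (difference -1.36 ± 0.13 SE, adjusted p = 0.000235). What the levels of GABPB1 and MYC have to do with those of the MRP genes was not tested.

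The templates of the mitochondrial ribosome fell on the TMM scale. Of 13 mitochondrially encoded mRNAs 12 fell with both shRNAs, 13 with sh#16 and 9 with sh#87, and 2 were higher with sh#87 than with sh#16. The shares of all genes called in these directions were 29.7%, 30.2%, 33.6% and 8.29%. The mRNA levels rested on NT libraries that differed widely. MT-ATP8 measured 5486, 2884 and 382 CPM in NT, 151, 201 and 150 CPM in sh#16 and 351, 244 and 411 CPM in sh#87 (-3.54 ± 0.61 SE, adjusted p = 0.00041), and sh#87 overlapped NT. MT-CO1 had the smallest change and did not pass (-0.77 ± 0.35 SE, adjusted p = 0.0708). It was called higher with sh#87 than with sh#16 (1.07 ± 0.24 SE, adjusted p = 0.00914), the opposite direction to 20 of the 21 MRP genes called there. Both ribosomal RNAs, which a library of mRNAs holds only as a remainder, overlapped NT with both shRNAs, for example MT-RNR2 with 2463, 725 and 59.7 CPM in NT and 29.5 to 69.4 CPM in the knockdown libraries (-4.45 ± 0.75 SE, adjusted p = 0.000379). MT-RNR1 had the smaller change of the pair (-3.13 ± 0.71 SE, adjusted p = 0.00258).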

How the data were processed

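The authors deposited estimated counts per gene, all whole numbers, in 1 table of the 9 libraries. The library kit was for stranded mRNA. The header of the table names salmon outputs, while the methods name STAR and GRCh38, and the strand setting of the counting is not given in the sources used here. The sh#87 libraries carry the number 18 in 1 label field and were grouped by their titles. Genes were tested in R 4.3.3 with edgeR 4.0.16 (TMM, filterByExpr, quasi-likelihood test, Benjamini-Hochberg adjustment over all 16312 genes tested) and called at an adjusted p of at most 0.01. Both shRNAs against NT used a fit of 2 groups, the other comparisons a fit of 3 groups. CPM values are TMM-scaled, except for length-scaled CPM, and SE is the log2 fold change divided by the square root of F. The scripts were tested on simulated data, drawn with the same spread of a gene in all groups and no GC trend. That test therefore does not show how the calls behave with the unequal spread of the real groups. Alternatives were DESeq2 1.42.0, limma-voom (limma 3.58.1), other scalings, filters and thresholds, a replicate block, a loess correction for length and GC content (span 0.5, degree 1) and each library left out. A limit of 3 counts in a library corresponds to 0.0648 to 0.164 CPM and covers counting error only. Lengths and GC content are those of 1 GENCODE transcript per gene, and positions and promoters are from RefSeq (GRCh38.p14). Replicate numbers did not pair the samples.

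The members and lists were chosen with earlier results of these data known. Named were the 5 highest and 5 lowest fold changes, genes past the study's threshold, up to 5 genes in each direction between the shRNAs, the MRPS18 paralogs, the 3 highest and 3 lowest levels per length, the 3 changes nearest 0, the extremes of each list, the other ribosomal proteins, MYC and MECOM. Genes named by subunit region, head-to-head pair, promoter word or as the only gene of a count were chosen after their values were seen. The result of 1 marker list is not reported here.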

Additional observations from a re-analysis of the deposited data

Results flagged for a closer look

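In 8 of the named MRP genes the effects of the 2 shRNAs differed by the test of the difference itself. The log2 difference of sh#87 and sh#16 was -0.81 for MRPL3, -0.97 for MRPL50, -0.82 for MRPL15, -0.99 for MRPS36, -0.90 for MRPL24, -0.57 for MRPS21, -0.45 for MRPS33 and 0.40 for MRPS25. In 2 genes a single knockdown library, sh#87 replicate 3, stood apart from the other 5 by Dixon's criterion. Its distance from the next library, divided by the span of all 6, was 0.833 for MRPL41 (12.9 against 15.2 CPM) and 0.704 for MRPL14 (16.6 against 19.7 CPM), above the critical value for 6 samples. These were 2 of 26 such tests, and both marked the same library. Chance marks about 1 in 20 only where the 6 libraries are of 1 group, and here they came from 2 shRNAs. In both genes this library remained above every NT library.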

How the results depend on the processing

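Counts of MRP genes called with both shRNAs, with sh#16 and with sh#87 stayed within 1.5 times the values given under every alternative, and the medians kept their sign in all comparisons. The count between the shRNAs was 32 with DESeq2, 54 with a voom weight per group, 10 with a replicate block, 7 against a fold of 1.2, 42 with a threshold of 0.05 on the adjusted p and 35 with the length and GC correction without NT replicate 1, an alternative chosen after seeing the data. For no alternative in this paragraph is the share of all genes called given, so the counts describe only the list. With 1 library left out the counts ran from 31 to 45 with both shRNAs, 32 to 51 with sh#16, 50 to 64 with sh#87 and 7 to 39 between them, and the medians from -0.53 to -0.40, -0.36 to -0.26, -0.77 to -0.66 and -0.38 to -0.32. The medians were -0.36, -0.16 and -0.57 with upper-quartile scaling (both, sh#16, sh#87), -0.35 with the voom weight (both), -0.54, -0.42 and -0.26 with the length and GC correction (both, sh#16, between) and -0.53, -0.39, -0.63 and -0.26 with that correction without NT replicate 1 (both, sh#16, sh#87, between). Estimates near 0 changed sign: MRPL4 to -0.0116 (RLE), -0.0114 (DESeq2), -0.75 (length and GC), -0.61 (the same without NT replicate 1) and -0.10 to 0.0560 (1 library left out), MRPS26 to 0.0880 (upper quartile), 0.11 (voom weight) and -0.19 to 0.12 (1 left out), MRPL2 to 0.0615 (upper quartile), 0.0101 (voom weight) and -0.23 to 0.0374 (1 left out), and MRPS18A to -0.22 (length and GC), -0.33 (the same without NT replicate 1) and -0.11 to 0.27 (1 left out). The cause was not tested. The replicate block gave 35, 40, 51 and 10 calls. Samples with the same number did not deviate together (correlations from -0.14 to 0.0826), so the numbers were not taken as pairs, and no sample was crossed. The parts of depth and of the spread of the NT libraries in the precision were not tested.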

Other observations

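The 8 related transcripts left out of the list had these values. MRPL45P2, a copy of MRPL45, rose from 3.14, 4.46 and 4.67 CPM in NT to 7.95, 6.01 and 6.90 CPM in sh#16 and 7.48, 8.54 and 7.57 CPM in sh#87 (log2 fold change 0.85 ± 0.17 SE, adjusted p = 0.00131), while MRPL45 fell (-0.99). MRPL35P3 measured 0.258, 0.130 and 0.200 CPM in NT, 1.36, 1.04 and 0.767 CPM in sh#16 and 1.46, 1.97 and 2.54 CPM in sh#87, with as few as 3 counts in a library, while MRPL35 fell (-1.02). MRPL37P1, with as few as 1 count in a library, was also higher in every knockdown library than in NT, while MRPL37 fell (-0.96). MRPS31P4 fell (-1.29 ± 0.34 SE, adjusted p = 0.00633) with groups that overlapped, and MRPS31P5 did not pass (-0.20 ± 0.21 SE, adjusted p = 0.392). MRPS30-DT, the divergent transcript beside MRPS30, fell (-1.49 ± 0.34 SE, adjusted p = 0.00267), as MRPS30 did. MRPL20-AS1 measured -0.32 ± 0.11 SE (adjusted p = 0.0203), beside -0.39 for MRPL20. MRPL20-DT did not pass with both shRNAs (-0.12 ± 0.26 SE, adjusted p = 0.685), was called lower with sh#16 (-0.58 ± 0.16 SE, adjusted p = 0.00918) and was higher with sh#87 than with sh#16 (0.80 ± 0.16 SE, adjusted p = 0.00547). How the counting divided reads between copies and their parent genes, or between strands, is not given in the sources used here, so these values are uncertain. They were chosen after their values were seen.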
